A study of Mus musculus with 3 samples.

Results

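The comparison is between 2 sorted iCM libraries, the GMTMS library and the library labelled GMTMM, and it was made over protein-coding genes. A gene was compared when it had at least 50 counts in at least 1 of both libraries, which held for 11013 of the 22046 protein-coding genes in the deposited tables (54532 genes of every kind). Near that minimum, 150 genes with 50 to 54 counts in the higher library were compared and 179 genes with 45 to 49 counts were not. Direct cardiac reprogramming uses transcription factors of heart development to switch on cardiomyocyte genes in fibroblasts, without a pluripotent step. The tissue that replaces an infarct holds fibroblasts, which make collagen and other matrix, together with macrophages, endothelial cells and the mural cells of vessels. A cardiomyocyte is recognised by its sarcomere, in which myosin thick filaments slide along actin thin filaments anchored at Z-discs.

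Both libraries came from MICFs, the cardiac fibroblasts isolated from the infarct of Myh6-mCherry mice, which were 8 weeks old at ligation of the left anterior descending artery and gave cells 5 days later. The MICFs of both libraries received Tet-On lentiviruses and doxycycline (1 µg/ml) in iCM medium for 4 weeks, and mCherry-positive cells were then sorted. GMTMS stands for Gata4, Mef2c, Tbx5, Myocd and Sall4, and in GMTMM Mesp1 takes the place of Sall4. The reporter is driven by the Myh6 promoter, so the sort took cells in which that promoter was active, and the cells of 5 sorted samples were mixed to make each library. The remaining library was MICFs kept in culture for the same time without virus, for which the study's design text names dissociation but no sort. It served as a parallel reference, and the series holds no library of the cells before culture.

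Each condition had a single library (1 per group), so the differences below have no replicate check and were not tested. The library totals were between 10624118 and 11904484 counts, with 1.36% to 1.79% of them from mitochondrial genes. Values are given in the order MICFs, GMTMS-iCMs, library labelled GMTMM. Levels are the FPKM that the authors deposited, and a fold compares the FPKM of both sorted libraries. The range after a fold is its 95% Clopper-Pearson interval from the counts, which covers counting error only. Genes past 2-fold are called higher or lower. List medians that change sign when the median of the macrophage genes is set to 0, a scaling chosen after seeing the data, are given with their value on that scale.

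The label GMTMM is at odds with the factors counted. Sall4, a zinc-finger factor of early embryonic cells and absent from the GMTMM cocktail, had 0, 1190 and 1060 counts. Mesp1, the cardiac mesoderm factor of that cocktail, had 0, 0 and 0 counts. The library is therefore called the library labelled GMTMM throughout, and since it is the only library on its side, no value can be given without it. The other delivered factors were counted in both sorted libraries. Tbx5, a T-box factor of the heart, had 1, 804 and 670 counts and was 1.51-fold higher (1.36 to 1.67) in GMTMS-iCMs. Myocd, a coactivator of muscle genes, had 8, 574 and 342 counts and was 2.11-fold higher (1.84 to 2.42), the only delivered factor past 2-fold. Sall4 itself was 1.41-fold higher (1.30 to 1.54) and Mef2c, a MADS-box factor of muscle, was 1.52-fold higher (1.40 to 1.65), while Gata4, a zinc-finger factor of the heart, was 1.34-fold lower (1.25 to 1.44) in GMTMS-iCMs. Counts per gene do not separate delivered transcripts from the cell's own. The 4 Y-linked genes examined had 0 counts in MICFs and were counted in both sorted libraries, none of them past 2-fold between these, while Xist, the RNA of the inactive X chromosome, had 11855, 5279 and 1618 counts and was 4.10-fold higher (3.88 to 4.34) in GMTMS-iCMs. The sex of the mice is not in the labels, so a different mixture of male and female cells and the cocktail cannot be told apart.

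The defining markers of several cell types were present in both sorted libraries. Of the cardiomyocyte markers, Tnnt2 (troponin T), Myh6, Actc1 and Tnni3 had FPKM of 86.3, 226, 317 and 32.6 in GMTMS-iCMs and of 39.7, 65.5, 122 and 8.59 in the library labelled GMTMM. Of the macrophage markers, Ptprc (CD45), Adgre1 (F4/80) and Csf1r (the receptor for colony-stimulating factor) had FPKM of 40.8, 568 and 592 in GMTMS-iCMs and of 12.1, 215 and 225 in the other. Lyz2, the lysozyme of macrophages, reached FPKM of 11353 and 5495, above every one of these cardiomyocyte markers in both. On their markers, neither library therefore held cardiomyocyte RNA alone. In bulk RNA, fewer cells of a type and less RNA per cell cannot be told apart, which holds for each gene group below.

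**Figure D1:**
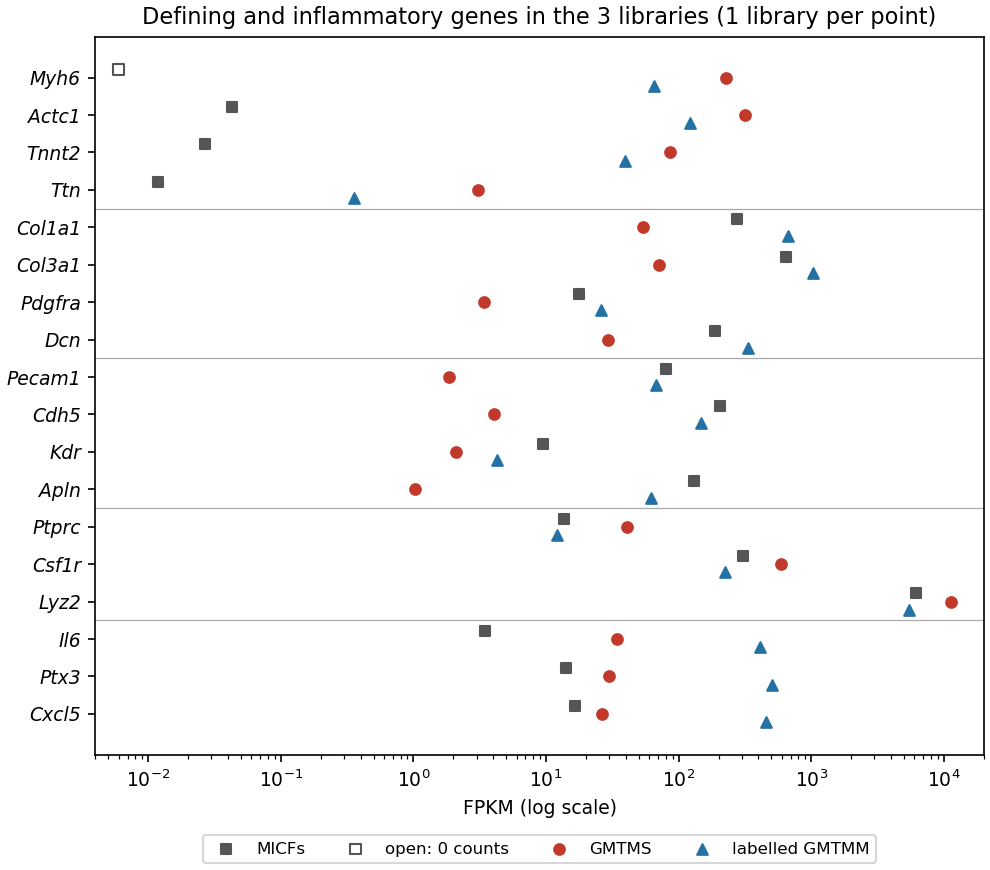
FPKM on a log axis of cardiomyocyte, fibroblast, endothelial, macrophage and inflammatory genes, from top to bottom, in MICFs (squares), GMTMS-iCMs (circles) and the library labelled GMTMM (triangles), with 1 library per point and an open square for 0 counts. Col1a1 was at 277, 54.2 and 665 and Pecam1 at 80.8, 1.85 and 67.8 in that order. For these genes the library labelled GMTMM sits near or above MICFs while GMTMS-iCMs sit below both. Kdr and Apln are over 2-fold below MICFs in both sorted libraries, and the cardiomyocyte genes are highest in GMTMS-iCMs.

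The promoters of the sarcomere genes are shown because Myocd, delivered in both cocktails, is known to act with the factor SRF at the CArG box, and Mef2c at the MEF2 site. RefSeq promoter windows (GRCm38.p6, 250 bases before to 50 bases after a start) were found for 25 of the 31 contraction genes compared, in 32 windows. A CArG box lay in 9 of these windows (28.1%), those of Acta1, Actc1, Fhl2, Ldb3, Myl3, Myl7 and Myom1. It lay in 1.63% of all 32851 windows and in 1.38% of the 11198 windows of the genes compared. It lay in 0 of the 84 windows of the fibroblast genes and in 0 of the 27 windows of the endothelial genes described below, with windows found for 68 of the 105 and 22 of the 42 genes. At a share of 1.63%, few or no matches are expected in so few windows. These counts therefore set neither group apart from all windows. A MEF2 site lay in 3 of the 32 windows (9.38%), those of Fhl2, Mybpc3 and Ttn, against 3.19% of all and 1.59% for the genes compared. It lay in 2.38% of the fibroblast and 3.70% of the endothelial windows. AGATAA, the letters GATA factors bind, lay on either strand in 15.6% of the 32 windows and 11.2% of all, and AGGTGTGA, those of T-box factors, in 3.12% and 1.28%. For these 2 motifs, the shares were 6.19% and 0.759% for the genes compared. They were 3.57% and 0.00% for the fibroblast genes, and 11.1% and 7.41% for the endothelial genes. The first 2 motifs read the same on both strands, and a match is a description of letters and not of binding. The stretches around the motif, which is in capitals, come from the minus strand and are written from 5′ to 3′. Distances count from the RefSeq start of the window. For Actc1 the stretch lies inside the span of the gene in the deposited tables (114047282 to 114053548).
Actc1, chr2:114052876-114052967, CArG box starting 47 bases before the start of the gene: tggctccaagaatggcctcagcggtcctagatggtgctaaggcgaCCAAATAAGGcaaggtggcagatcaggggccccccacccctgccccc
Acta1, chr8:123894794-123894893, CArG box starting 73 bases before the start: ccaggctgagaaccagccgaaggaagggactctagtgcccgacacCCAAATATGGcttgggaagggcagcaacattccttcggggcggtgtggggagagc
Myl7, chr11:5898789-5898888, CArG box starting 61 bases before the start: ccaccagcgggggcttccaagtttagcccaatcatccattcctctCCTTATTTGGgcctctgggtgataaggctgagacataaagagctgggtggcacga
Ttn, chr2:76982659-76982758, MEF2 site starting 166 bases before the start: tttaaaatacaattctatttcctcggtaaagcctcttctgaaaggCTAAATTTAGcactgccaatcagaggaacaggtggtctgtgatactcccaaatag
The first 3 genes, with a CArG box, were between 2.58-fold and 2.77-fold higher in GMTMS-iCMs, and Ttn was 8.48-fold higher. Among the other genes with a CArG box, Ldb3, its ratio given after its value was seen, was 2.42-fold higher. Myl3 and Myom1 were 1.70-fold and 1.53-fold higher and did not pass 2-fold. Tnni3, with a window but listed with neither motif, was 3.79-fold higher. A link between motif and ratio was not tested. Fhl2, which held both motifs, was 2.30-fold lower (1.99 to 2.67).

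Between the libraries, 1046 genes (9.50% of those compared) were over 2-fold higher in GMTMS-iCMs and 1833 (16.6%) were over 2-fold lower. With the library totals in place of the authors' library sizes there were 722 and 2069, so that 25.9% of the calls were higher instead of 36.3%, and with the macrophage median at 0 it was 0.357%. The library totals also moved the median of all genes from 0.03 to -0.13. The median log2 ratio of all genes compared was 0.03, and the middle 50% lay between -0.51 and 0.48. The differences were not symmetrical in size. Past 4-fold there were 45 higher and 1064 lower genes, past 8-fold 6 higher and 564 lower, and past 32-fold 69 lower genes. All 2879 called genes had an interval that left out 1, and for 2142 of them the whole interval was past 2-fold.

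**Figure D2:**
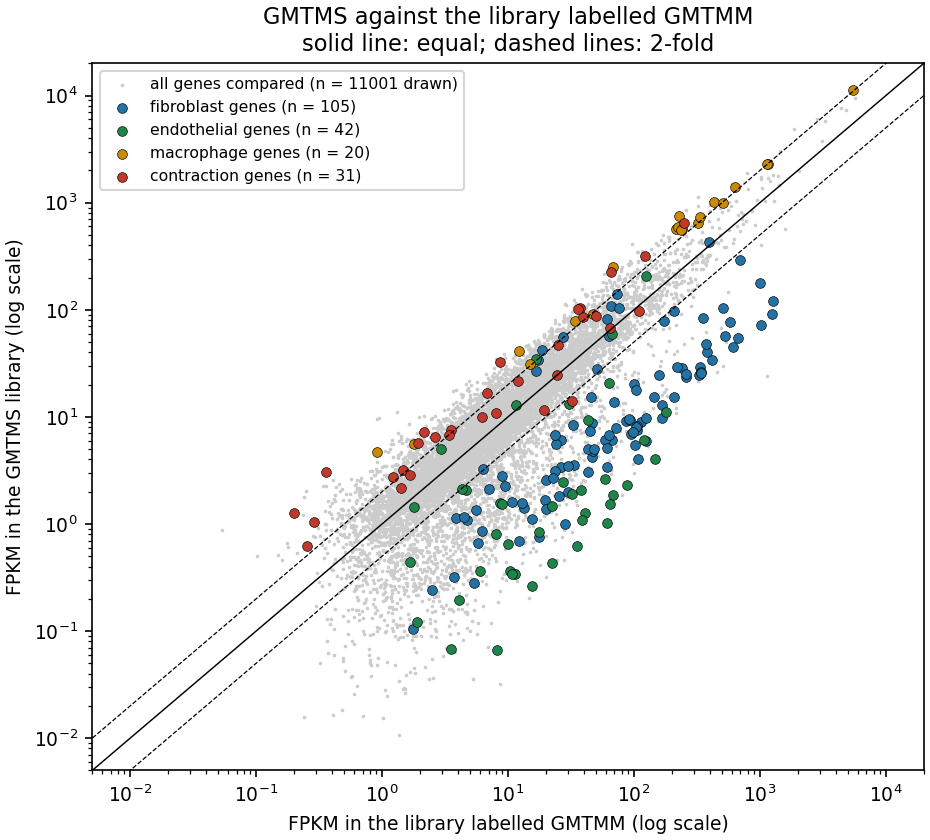
FPKM in GMTMS-iCMs (y) against the library labelled GMTMM (x), both on log axes, with 1 point per gene, coloured for 4 groups of genes. 12 genes with 0 counts in GMTMS-iCMs are not drawn. Fibroblast (93 of 105 lower) and endothelial genes (36 of 42 lower) lie below the lower dashed line, and contraction (19 of 31 higher) and macrophage genes (17 of 20 higher) lie around the upper one; the median of the contraction genes, 1.12 on the log2 scale, becomes -0.09 when the macrophage median is set to 0.

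Genes of the thick filament were higher in GMTMS-iCMs, 7 of the 11 compared past 2-fold and none past 2-fold lower, with a median log2 ratio of 1.30. Myh6 (ENSMUSG00000040752, chromosome 14 from 54941921 to 54966927, GRCm38), the adult heart's myosin heavy chain, had 0, 14098 and 5149 counts and was 3.44-fold higher (3.34 to 3.56). Its promoter is also that of the sorted reporter, and 22.6% of the 50-base words of its transcript occur in another gene. Myh7, the neighbouring heavy chain of the fetal ventricle, had only 0, 83 and 29 counts and was 3.60-fold higher (2.33 to 5.70). Of its words, 22.2% occur in another gene, so its few counts are uncertain. Ttn (ENSMUSG00000051747, chromosome 2 from 76703980 to 76982547), the giant spring that runs through the whole sarcomere, had 20, 3305 and 490 counts. With 8.48-fold higher (7.71 to 9.35) it showed the largest ratio of the sarcomere genes.
The myosin light chains differed less than Ttn. Myl7, the atrial regulatory light chain, had 0, 3507 and 1708 counts and was 2.58-fold higher (2.44 to 2.74). Myl4, the atrial essential light chain, had 24, 2006 and 1338 counts and was 1.89-fold higher (1.76 to 2.02). Myl3, the ventricular essential chain, had 0, 54 and 40 counts and Myl1, the chain of fast skeletal muscle, 2, 191 and 150, and neither passed 2-fold. Myl2, the ventricular regulatory chain, stayed under the count minimum with 0, 1 and 3 counts, so no difference was detectable at this depth. Mybpc3, cardiac myosin-binding protein C, had 19, 250 and 129 counts and was 2.44-fold higher (1.96 to 3.04). At the middle of the thick filament, the M-band gene Myom2 had 0, 51 and 26 counts and was 2.47-fold higher (1.51 to 4.12), while Myom1 had 167, 211 and 173 counts and was 1.53-fold higher (1.25 to 1.89).

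Of the 7 thin filament genes, 6 were higher, with a median log2 ratio of 1.47. Tnni3, the inhibitory troponin of the adult heart, had 36, 624 and 207 counts and was 3.79-fold higher (3.23 to 4.46). Actc1, the cardiac actin, had 1, 4765 and 2313 counts and was 2.59-fold higher (2.46 to 2.72). Acta1, the skeletal actin that the fetal heart also makes, had 2, 1467 and 666 counts and was 2.77-fold higher (2.53 to 3.04). These 3 genes had at most 36 counts in MICFs and were counted in both sorted libraries. Tnnc1, the calcium sensor of the troponin complex, had 16, 979 and 434 counts and was 2.84-fold higher (2.53 to 3.18), and Tnnt2 had 3, 6216 and 3594 counts and was 2.18-fold higher (2.09 to 2.27). Tmod1, which caps the filament end, had 63, 207 and 89 counts and was 2.93-fold higher (2.27 to 3.79). The exception was Tpm1, a tropomyosin that fibroblasts and smooth muscle use as well, with 4514, 5845 and 8276 counts and a difference below 2-fold, 1.13-fold lower (1.09 to 1.16).

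The Z-disc list was mixed, with 6 of 13 genes higher, 1 lower and a median log2 ratio of 0.83. The sign of this median turned to -0.38 when the macrophage median was set to 0. Actn2, the actinin that crosslinks sarcomeric actin, had 0, 253 and 96 counts and was 3.31-fold higher (2.61 to 4.24). Ankrd1, a stretch-sensitive repressor, had 638, 1422 and 1031 counts and was 1.73-fold higher (1.60 to 1.88), and Flnc, the muscle filamin, had 1082, 1868 and 1321 counts and was 1.78-fold higher (1.66 to 1.91). Neither of the latter genes passed 2-fold. Pdlim5, an actin-bound adaptor, had 2034, 2017 and 2534 counts and FPKM of 24.5 and 24.4 in the sorted libraries. Cryab, a small heat-shock protein, was 1.05-fold higher (0.963 to 1.15), and Fhl2, a LIM-only cofactor of heart and fibroblasts, had 958, 248 and 718 counts and was 2.30-fold lower (1.99 to 2.67). Over the 3 lists together, 19 of 31 contraction genes were higher and 1 was lower, with a median log2 ratio of 1.12 (-0.09 with the macrophage median at 0), and they took 0.0905%, 0.502% and 0.284% of the counts.

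Genes of calcium handling showed no common direction, with 2 of 12 higher, 2 lower and a median log2 ratio of 0.27 (-0.95 with the macrophage median at 0). Among all genes compared, 9.50% were higher and 16.6% lower. Ryr2, the channel that releases calcium from the reticulum and named after its values were seen, had 0, 1570 and 763 counts and was 2.59-fold higher (2.37 to 2.83). Slc8a1, the sodium-calcium exchanger, had 597, 711 and 293 counts and was 3.05-fold higher (2.66 to 3.51), and Atp2a2, the reticulum's calcium pump, had 3275, 8450 and 5952 counts and was 1.79-fold higher (1.73 to 1.85). On the other side stood Casq2, the calcium store of the reticulum, with 80, 17 and 124 counts, 5.8-fold lower (3.48 to 10.3), and MICFs held it too. Jph2, which holds the reticulum at the cell membrane, had 598, 781 and 1848 counts and was 1.88-fold lower (1.73 to 2.05).
Among 7 channels 2 were higher and 2 lower, with a median log2 ratio of 0.89 (-0.32 with the macrophage median at 0). Hcn4, the pacemaker channel, had 0, 798 and 490 counts and was 2.05-fold higher (1.83 to 2.30). Kcnj5, a potassium channel of atrium and node, had 23, 562 and 310 counts and was 2.28-fold higher (1.98 to 2.63). In contrast Kcnj2, the channel that sets the resting potential, had 627, 144 and 578 counts and was 3.19-fold lower (2.65 to 3.86), and Kcnq1, a repolarising channel, had 72, 6 and 108 counts and was 14.3-fold lower (6.37 to 39.9). Both channels that were lower had been counted in MICFs, while Hcn4 had not.

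The intercalated disc joins neighbouring cardiomyocytes, and its 7 genes went both ways, with 1 higher, 2 lower and a median log2 ratio of -0.16. Dsp, the desmosomal plakin, had 4, 896 and 223 counts and was 5.05-fold higher (4.36 to 5.88). Gja1, the main gap junction protein of the ventricle, had 1298, 2462 and 2941 counts and was 1.05-fold higher (0.998 to 1.11). Tjp1, a tight-junction scaffold that endothelial cells share, had 2481, 227 and 1465 counts and was 5.13-fold lower (4.46 to 5.93), and Jup, plakoglobin, had 2114, 656 and 1499 counts and was 1.82-fold lower (1.66 to 1.99). Neither of the 2 natriuretic peptide genes compared passed 2-fold. Nppa, atrial natriuretic peptide, had 0, 30 and 52 counts and was 1.38-fold lower (0.863 to 2.24), with 61.5% of its exon bases inside exons of another gene, and Corin, the protease that activates it, had 4, 84 and 93 counts and was 1.14-fold higher (0.836 to 1.54). Of 8 genes of muscle metabolism, 3 were higher and none lower, with a median log2 ratio of 0.53 (-0.68 with the macrophage median at 0). Cox6a2, the muscle form of a cytochrome oxidase subunit, had 25, 76 and 30 counts and was 3.19-fold higher (2.06 to 5.04), whereas Hadha, of fatty acid oxidation in every tissue, had 1937, 1362 and 1619 counts and was 1.06-fold higher (0.984 to 1.14).

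The cardiac transcription factors that were not delivered did not follow the sarcomere genes. None of the 8 compared was higher, 5 were lower, and their median log2 ratio was -1.82. Tbx20, a T-box factor that cardiac fibroblasts also make, had 5005, 979 and 4251 counts and was 3.45-fold lower (3.22 to 3.70). Zfpm2, the partner of GATA factors, had 246, 29 and 345 counts and was 9.46-fold lower (6.47 to 14.3). Mef2a, the relative of the delivered Mef2c, had 2430, 2342 and 2022 counts and was 1.46-fold higher (1.37 to 1.55), and Srf, the partner of Myocd at the CArG box, had 743, 391 and 626 counts and was 1.27-fold lower (1.12 to 1.45). Nkx2-5, Isl1, Hand1 and Gata5, factors of the embryonic heart, had 0 counts in all 3 libraries. Each 0 allows up to 3 counts.

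Fibroblast genes were mostly lower in GMTMS-iCMs, and by more than the cardiac genes differed. Of 105 fibroblast genes compared, 93 were lower in GMTMS-iCMs, 2 were higher and 10 were neither, with a median log2 ratio of -3.22. They took 6.17%, 1.43% and 8.47% of the counts. Relative to MICFs, their median log2 ratio was -2.35 for GMTMS-iCMs and 0.68 for the other sorted library. The latter thus held at least as much fibroblast RNA as MICFs cultured without virus. All 16 collagen genes were lower, with a median of 13.2-fold.
Col3a1 (ENSMUSG00000026043, chromosome 1 from 45311538 to 45349706), the collagen of granulation tissue, had 91516, 6501 and 117523 counts and was 14.4-fold lower (14 to 14.7). Col1a1, a chain of the main collagen of scar, had 26135, 3306 and 50948 counts and was 12.3-fold lower (11.8 to 12.7). Col4a1, of the basement membrane, had 33205, 2335 and 35980 counts and was 12.3-fold lower (11.7 to 12.8). In each of these genes GMTMS-iCMs was lowest and the library labelled GMTMM highest. Col18a1, a basement membrane collagen of vessels, had 8974, 265 and 8883 counts and the largest difference of the 16, 26.7-fold lower (23.6 to 30.2). The smallest was that of Col12a1, which decorates collagen fibrils, with 647, 154 and 841 counts, 4.34-fold lower (3.65 to 5.19).

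All 25 matrix glycoproteins and proteoglycans were lower, with a median log2 ratio of -3.25. Sparc, a collagen-binding protein of remodelling tissue, had 45373, 3205 and 55568 counts and was 13.8-fold lower (13.3 to 14.3). Fn1, fibronectin, had 44154, 4367 and 51606 counts and was 9.40-fold lower (9.11 to 9.69), and Bgn, the proteoglycan biglycan, had 31694, 3253 and 37778 counts and was 9.23-fold lower (8.91 to 9.57). The largest difference was that of Mfap5, of the elastic microfibril, with 455, 25 and 733 counts, 23.3-fold lower (15.7 to 36.3). Thbs1, thrombospondin, had 12510, 10126 and 71029 counts. It was 5.58-fold lower (5.46 to 5.70), with FPKM of 143 in MICFs and 179.5 in GMTMS-iCMs against 1001 in the library labelled GMTMM.
Among 20 enzymes that build or cut matrix, 17 were lower, with a median log2 ratio of -3.14. Serpinh1, the collagen chaperone, had 9857, 1082 and 10734 counts and was 7.89-fold lower (7.41 to 8.40). Mmp2, a gelatinase, had 8833, 903 and 9500 counts and was 8.37-fold lower (7.81 to 8.97), and Adamts5, an aggrecanase, had 3898, 111 and 1964 counts and was 14.1-fold lower (11.6 to 17.2). The 3 genes within 2-fold were Timp2, P4ha1 and P4ha2. Timp2, a metalloproteinase inhibitor, had 19943, 15481 and 17997 counts and was 1.08-fold higher (1.06 to 1.11).

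Identity and surface genes of fibroblasts were lower in 16 of 18 cases, with a median log2 ratio of -2.59. Pdgfra, the growth factor receptor that marks cardiac fibroblasts, had 2559, 318 and 3056 counts and was 7.64-fold lower (6.81 to 8.60). Tcf21, their lineage factor, had 890, 43 and 823 counts and was 15.2-fold lower (11.2 to 21.2). Cd34, a sialomucin of progenitor and endothelial cells, had 3167, 68 and 2433 counts and was 28.4-fold lower (22.4 to 36.8). Vim, the intermediate filament of all mesenchymal cells and of macrophages, had 27988, 12931 and 38474 counts and was 2.37-fold lower (2.32 to 2.41). The genes that were not lower were Cd44 and Pdpn, of which Cd44, a hyaluronan receptor that leukocytes carry too, had 1028, 8761 and 5759 counts and was 1.91-fold higher (1.85 to 1.98).
Mesenchymal transcription factors were lower in 9 of 11 cases and higher in 1, with a median log2 ratio of -2.75. Prrx1, a homeobox factor of fibroblasts, had 1586, 145 and 1739 counts and was 9.54-fold lower (8.05 to 11.4), and Wt1, a factor of the epicardium, had 8, 6 and 128 counts and was 17-fold lower (7.58 to 47.1). The gene that was higher was Zeb2, a repressor that macrophages also use, with 4680, 7793 and 4331 counts, 2.26-fold higher (2.18 to 2.35). Of 15 growth factor genes 10 were lower and 1 higher, with a median log2 ratio of -2.40. Pdgfrb, the receptor of fibroblasts and pericytes, had 6660, 453 and 7282 counts and was 12.8-fold lower (11.6 to 14.1). Wisp2, a matricellular factor, had 2093, 98 and 2308 counts and was 18.7-fold lower (15.3 to 23.2). The receptors for transforming growth factor stood apart from these, since Tgfbr1 had 2047, 3408 and 2095 counts and was 2.05-fold higher (1.94 to 2.16) and Tgfbr2 had 13364, 7855 and 7312 counts and was 1.35-fold higher (1.31 to 1.39).

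**Figure D3:**
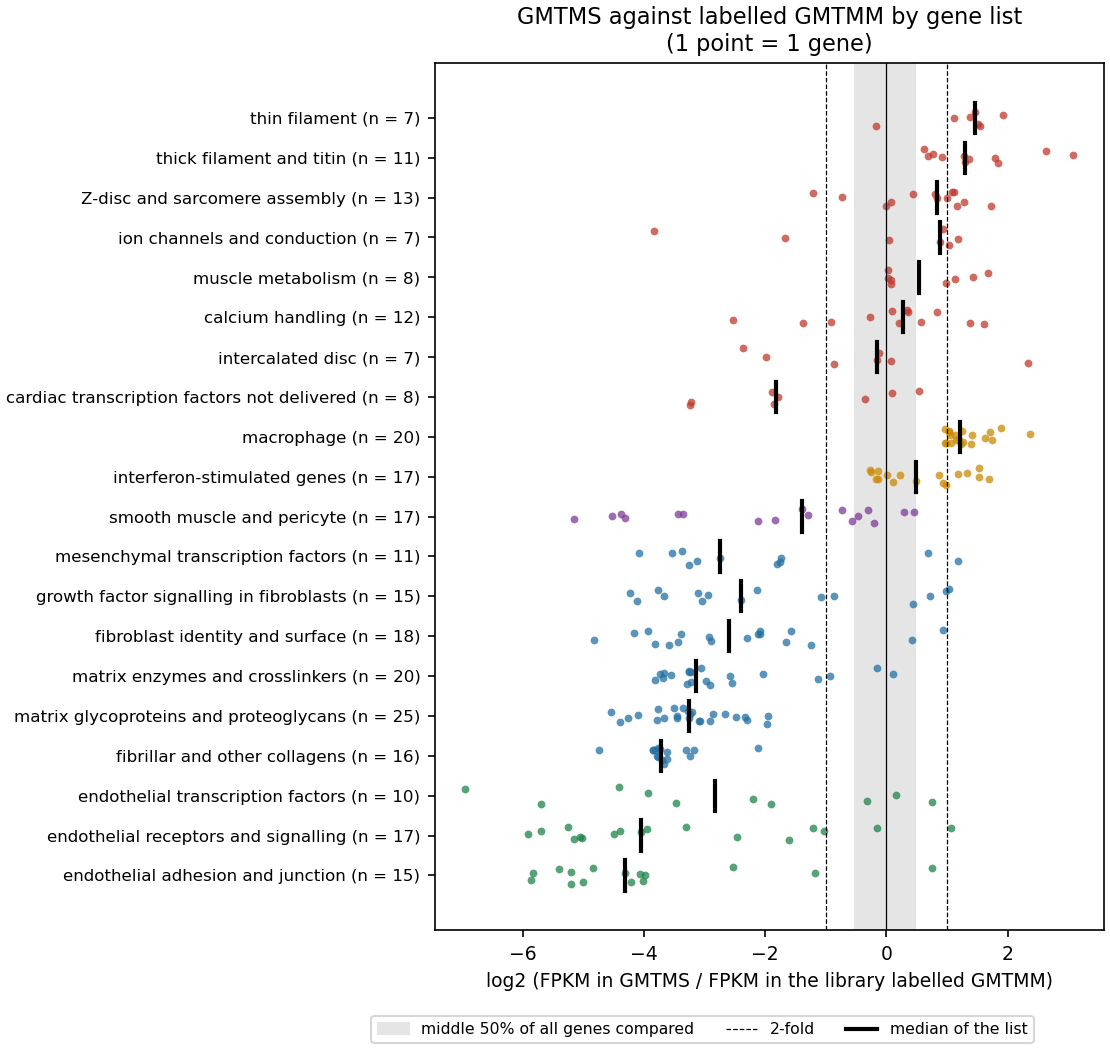
Log2 ratio of FPKM in GMTMS-iCMs to the library labelled GMTMM by gene list, with 1 point per gene, a bar at the median, the grey band over the middle 50% of all genes compared (-0.51 to 0.48) and dashed lines at 2-fold. Medians run from 1.47 for the thin filament to -4.31 for endothelial adhesion genes, and the macrophage median of 1.21 lies between those of the thick filament (1.30) and the Z-disc (0.83), which changes sign to -0.38 once the macrophage median is set to 0.

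Endothelial genes differed by more than fibroblast genes at the median, -4.05 on the log2 scale, with 36 of 42 genes lower and 1 higher. Summed over all listed genes found, the order was the other way. The endothelial sum was 2.65-fold lower (2.61 to 2.69) and the fibroblast sum 5.28-fold lower (5.26 to 5.31). In GMTMS-iCMs, however, Cd93, also a gene of myeloid cells, gave 12938 of the 22429 endothelial counts. Nrp1 and S1pr1, which other cells share, gave a further 3183 and 1693. The endothelial sum and share in GMTMS-iCMs thus rest largely on genes that are not particular to endothelium. The endothelial genes took 0.844%, 0.211% and 0.628% of the counts. Relative to MICFs the endothelial median was -4.36 for GMTMS-iCMs and -0.25 for the other sorted library. At the median, vessel RNA too was thus near the level of MICFs in the latter. Junction and adhesion genes were lower in 14 of 15 cases. Pecam1 (CD31) had 7237, 107 and 4932 counts and was 36.7-fold lower (30.3 to 44.8). Cdh5 (ENSMUSG00000031871, chromosome 8 from 104101625 to 104144511), the cadherin of endothelial junctions, had 12354, 157 and 7239 counts and was 36.7-fold lower (31.3 to 43.2). Robo4, a guidance receptor of vessels, had 1478, 13 and 951 counts and was 58.2-fold lower (33.9 to 109.6). These genes were high in MICFs and in the library labelled GMTMM and low in GMTMS-iCMs. Sele, the selectin of inflamed endothelium, was instead scarce in MICFs, with 99, 301 and 6136 counts, and was 16.2-fold lower (14.4 to 18.3). Cd93, the member within 2-fold, is also a gene of myeloid cells, and had 15430, 12938 and 9685 counts, 1.68-fold higher (1.64 to 1.73).
Of 17 endothelial receptors and signals 15 were lower, with a median log2 ratio of -4.04. Apln, the peptide apelin of tip cells, had 5916, 30 and 2259 counts and was 59.9-fold lower (41.8 to 89.0). Notch4 had 3425, 32 and 2099 counts and its ligand Dll4 2652, 45 and 1846, and they were 52.2-fold lower (36.8 to 76.5) and 32.6-fold lower (24.3 to 44.9). Tie1, an orphan receptor of endothelium, had 3263, 50 and 2225 counts and was 35.4-fold lower (26.7 to 47.8), and Nos3, the endothelial nitric oxide synthase, had 745, 13 and 546 counts and was 33.4-fold lower (19.4 to 63.1). Kdr, the main receptor for VEGF, differed far less, with 1236, 176 and 453 counts, 2.05-fold lower (1.72 to 2.45). Tek, the angiopoietin receptor, had 584, 68 and 471 counts and was 5.51-fold lower (4.26 to 7.21). The exceptions were S1pr1, a sphingolipid receptor of endothelium and leukocytes, with 1942, 1693 and 2381 counts, 1.12-fold lower (1.05 to 1.19), and Nrp1, a VEGF and semaphorin co-receptor found on many cells, with 4423, 3183 and 1908 counts, 2.10-fold higher (1.98 to 2.22).
The endothelial transcription factors were lower in 7 of 10 cases, with a median log2 ratio of -2.83. Sox18, a factor of vessel growth, had 901, 1 and 155 counts and was 123-fold lower (21.8 to 4899). Its relatives Sox17 and Sox7 had 450, 3 and 195 and 1110, 45 and 865 counts. Erg, an ETS factor that keeps endothelial identity, had 905, 27 and 719 counts and was 21.2-fold lower (14.4 to 32.4). The 3 factors within 2-fold, Fli1, Tal1 and Lyl1, are all used by blood cells as well, and Fli1 had 950, 418 and 470 counts, 1.12-fold higher (0.978 to 1.28).

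Mural genes of smooth muscle and pericytes were split, with 10 of 17 lower, none higher and a median log2 ratio of -1.40. Kcnj8, a potassium channel of pericytes, had 442, 18 and 802 counts and was 35.4-fold lower (22.3 to 60.1). Notch3, the receptor of mural cells, had 5137, 488 and 6614 counts and was 10.8-fold lower (9.83 to 11.8). The contractile genes of smooth muscle did not pass 2-fold, since Acta2, the smooth muscle actin, had 4672, 4970 and 9262 counts and was 1.48-fold lower (1.43 to 1.53) and Myh11, the smooth muscle myosin, had 1867, 4947 and 4530 counts and was 1.37-fold higher (1.32 to 1.43). Both are known targets of Myocd.

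Macrophage genes were higher in GMTMS-iCMs by about as much as the sarcomere genes. Of 20 compared, 17 were higher and none lower, with a median log2 ratio of 1.21, and they took 2.36%, 3.67% and 1.79% of the counts. The 3 within 2-fold had ratios just below it, from 1.95-fold to 1.97-fold. Lyz2 had 116179, 138765 and 84477 counts and was 2.07-fold higher (2.05 to 2.08). Mrc1, the mannose receptor of tissue macrophages, had 27268, 44302 and 17061 counts and was 3.27-fold higher (3.21 to 3.32). Csf1r had 21572, 26876 and 12838 counts and was 2.63-fold higher (2.58 to 2.69), and C1qb, of the complement complex, had 17984, 23458 and 14367 counts and was 2.05-fold higher (2.01 to 2.10). The largest was Cx3cr1, the fractalkine receptor of resident macrophages, with 454, 198 and 48 counts, 5.19-fold higher (3.77 to 7.27). Relative to MICFs the macrophage median was 1.03 for GMTMS-iCMs and -0.13 for the other sorted library. With the macrophage median at 0, the median log2 ratio of the contraction genes was -0.09, with the thick filament at 0.09, the thin filament at 0.26 and the Z-disc at -0.38. The contraction genes thus stood near the macrophage genes, and 14 of the 31 were above the macrophage median. On the same scale the fibroblast genes stood at -4.43 and the endothelial genes at -5.27. The part of the share of macrophage RNA in the difference of the cardiac genes was not tested.

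The interferon genes were higher in 5 of 17 cases and lower in none, with a median log2 ratio of 0.50 (-0.72 with the macrophage median at 0). Rsad2, the antiviral viperin, had 446, 21652 and 10839 counts and was 2.51-fold higher (2.45 to 2.57). Ifih1, a sensor of double-stranded RNA, had 584, 10487 and 4076 counts and was 3.24-fold higher (3.12 to 3.36), whereas Cxcl10, a chemokine for T cells, had 44, 10253 and 6761 counts and was 1.91-fold higher (1.85 to 1.97). Of 17 proliferation genes 9 were lower and 1 was higher, with a median log2 ratio of -1.11. Ccna2, the cyclin of DNA synthesis, had 169, 19 and 115 counts and was 4.81-fold lower (2.95 to 8.28), and Top2a, the mitotic topoisomerase, had 590, 248 and 468 counts and was 1.5-fold lower (1.28 to 1.76). The one that was higher, Mki67, the antigen of cycling cells, had 665, 3165 and 1432 counts and was 2.78-fold higher (2.61 to 2.96). Of 15 genes of stress and tissue dissociation, 2 were lower and none higher, with a median log2 ratio of -0.21. Among all genes compared, 16.6% were lower, so this list did not stand out by its count. The 2 lower genes were Fosb and Egr1, early genes of stimulated cells, and Egr1 had 12748, 2994 and 11397 counts, 3.03-fold lower (2.91 to 3.15).

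The library of MICFs, cultured in parallel without virus, was used to separate RNA near its level in those cells from RNA that differed in other ways. It had 0 counts of the 4 Y-linked genes counted in both sorted libraries. In ratios to it, a different mixture of male and female cells and the cocktail therefore cannot be told apart. The same sorted libraries enter both ratios to MICFs, so only counts of genes are given. Of the 1833 genes lower in GMTMS-iCMs, 1141 (62.2%) were within 2-fold of MICFs in the library labelled GMTMM and over 2-fold below MICFs in GMTMS-iCMs. Col3a1, Sparc, Fn1 and Dcn, the proteoglycan decorin, were among them. A further 419 (22.9%) were over 2-fold above MICFs in the library labelled GMTMM, and 60 (3.27%) were over 2-fold below, with Apln and Kdr among the latter. Of the 1046 genes higher in GMTMS-iCMs, 386 (36.9%) were over 2-fold above MICFs in GMTMS-iCMs only, 250 (23.9%) were above MICFs in both, as was Myh6, and 157 (15%) were over 2-fold below MICFs in the library labelled GMTMM. Another 259 (24.8%) were within 2-fold of MICFs in both, as was Lyz2. At most 3 counts in MICFs were found for 47 of the higher genes.

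**Figure D4:**
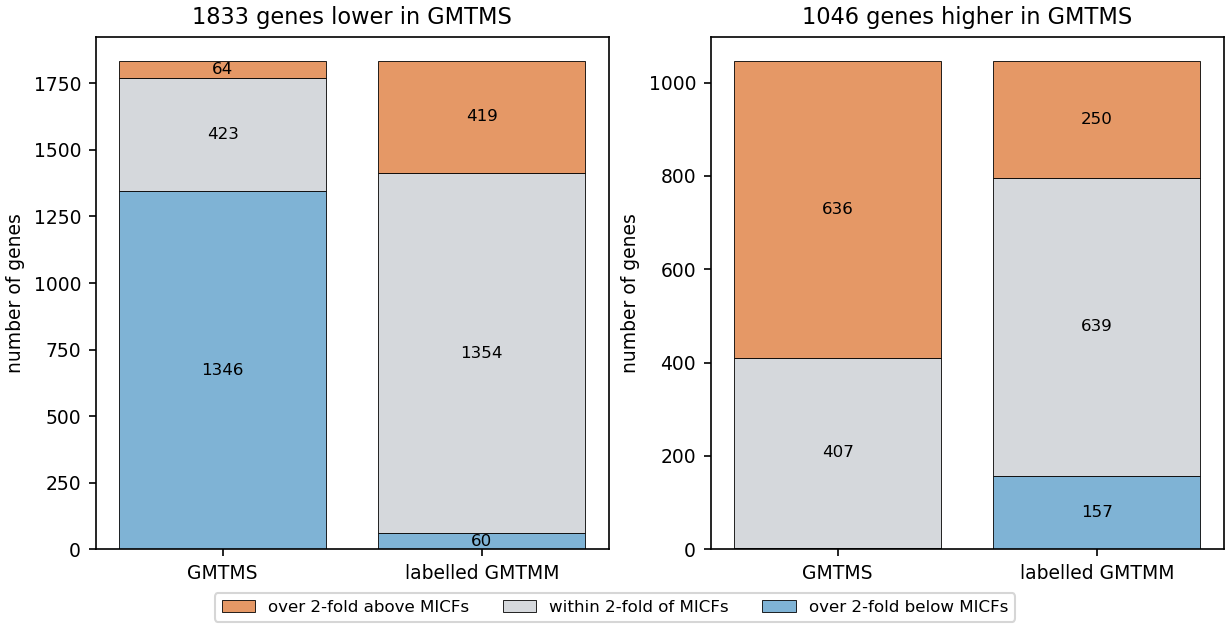
Number of genes over 2-fold lower (left, 1833) and higher (right, 1046) in GMTMS-iCMs, split by whether each sorted library was over 2-fold above, within 2-fold of or over 2-fold below MICFs. On the left, 1346 genes were below MICFs in GMTMS-iCMs against 60 in the library labelled GMTMM, and 419 were above MICFs in the latter.

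The genes above MICFs in the library labelled GMTMM included cytokines and chemokines of activated stroma, a group of 16 genes put together after its values were seen, all of them lower in GMTMS-iCMs. Il6, interleukin 6, had 122, 772 and 11635 counts and was 12-fold lower (11.1 to 12.9). Ptx3, a pentraxin released in inflammation, had 542, 748 and 15878 counts and was 16.9-fold lower (15.7 to 18.2). Cxcl5, a chemokine for neutrophils, had 441, 457 and 9903 counts and was 17.2-fold lower (15.7 to 19). In these 3 genes the level of GMTMS-iCMs lay nearer to that of MICFs than to the other sorted library. Igfbp3, a binding protein for insulin-like growth factors, had 43256, 699 and 41721 counts and was 47.5-fold lower (44.0 to 51.2), with MICFs within 2-fold of the library labelled GMTMM.

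The 15 genes with the smallest ratio to the library labelled GMTMM were all near absence in GMTMS-iCMs, with between 1 and 30 counts there. Ldb2, a cofactor of LIM factors that endothelial cells use, had 402, 1 and 334 counts and was 266-fold lower (47.3 to 10521). Gja4, a gap junction protein of arteries, had 744, 5 and 397 counts and was 63.1-fold lower (26.8 to 196). Gpihbp1, which holds lipoprotein lipase on capillaries, had 1007, 11 and 837 counts and was 60.5-fold lower (33.6 to 122). Nox4, an oxidase of vessels and fibroblasts, had 496, 5 and 374 counts and was 59.5-fold lower (25.3 to 184). Sox18 and Apln, given above, belong to the same 15, as do C130074G19Rik, Arhgef26, Gap43, Ctla2a, P2ry10, Sigirr, Crmp1, F2rl1 and Ablim3, and Ctla2a shares 30.1% of its words with another gene. Where 1 count remains the interval is wide, as in Gap43, a growth-cone protein, with 21, 1 and 123 counts and a ratio of 97.8-fold lower (17.2 to 3894). In 12 genes GMTMS-iCMs had 0 counts, among them Gna14, a G protein subunit, at least 34.5-fold lower against a floor of 3 counts.

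At the other end the ratios were smaller. The 15 genes with the largest ratio ran from 5.17-fold higher (4.37 to 6.15) for Hipk2, a nuclear kinase, to 16.3-fold higher (6.02 to 62.2) for the predicted gene Gm19410 with 0, 52 and 4 counts. Besides Ttn they held Mybpc2, the myosin-binding protein C of fast muscle, with 0, 76 and 15 counts, 6.37-fold higher (3.63 to 11.94), and Txlnb, a syntaxin-binding protein of heart and muscle, with 14, 104 and 16 counts, 8.17-fold higher (4.80 to 14.8). Fat3, an atypical cadherin, had 293, 511 and 102 counts and was 6.30-fold higher (5.09 to 7.87). Cx3cr1, Lcor, Zfp871, Trpc5os, Olfr111, Dynlt1c and the myeloid receptors Cd300ld3 and Cd300ld5 were also among them. Of their 50-base words, Cd300ld5 shares all, Dynlt1c 95.2%, Cd300ld3 82.1% and Olfr111 21.1% with another gene, so the counts of these 4 genes are uncertain.

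Ratios also moved with the length of the gene. Of 1171 genes with over 10000 exon bases, 15% were over 2-fold higher and the median log2 ratio was 0.28. Of 656 genes with at most 1500 bases, 8.38% were higher and the median was -0.17. The share of lower genes differed less between these lengths, 16.1% against 15.9%. Ttn, Fat3 and Ryr2 are among the long genes. The part of gene length in their ratios was not tested.

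**Figure D5:**
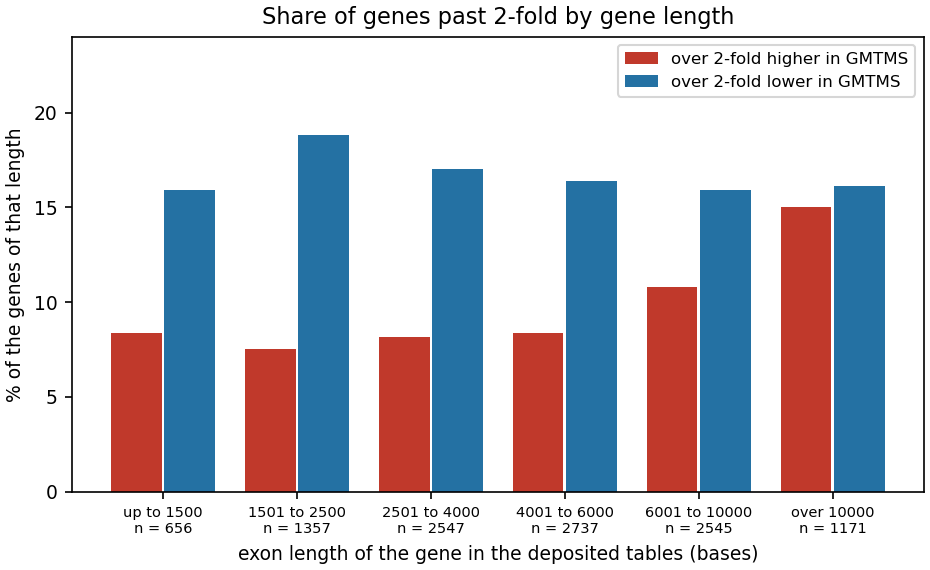
Percentage of the genes compared that were over 2-fold higher (red) or lower (blue) in GMTMS-iCMs, by exon length in bases, with the number of genes under each pair of bars. The share of higher genes is 8.38% up to 1500 bases and 15% over 10000 bases, and the share of lower genes lies between 15.9% and 18.8% in all 6 classes.

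Outside the protein-coding genes, 480 genes of other kinds had at least 50 counts in 1 of both libraries, of which 124 (25.8%) were over 2-fold higher and 54 (11.2%) lower, the reverse of the order among protein-coding genes. Rian, an imprinted RNA, had 674, 46 and 784 counts and was 13.6-fold lower (10.1 to 18.7). The imprinted H19 and Meg3, chosen after their values were seen, had 2736, 22 and 328 and 1428, 89 and 1423 counts and were 11.85-fold lower (7.70 to 19.2) and 12.7-fold lower (10.3 to 15.9). All 3 were counted in MICFs. Trbc2, a constant segment of the T cell receptor, had 7, 0 and 101 counts, which is at least 26.8-fold lower. The largest ratios belonged to predicted transcripts, led by Gm49125 with 39, 65 and 3 counts, 27.2-fold higher (8.92 to 136).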

How the data were processed

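RNA of 1 library per condition was sequenced in pairs by the authors, who deposited a raw count and an FPKM per gene. The submitters' processing notes name HISAT2 2.0.5 and mm9, but 53462 of the 54532 genes in the tables have the GRCm38 positions of GENCODE M21, so coordinates are given as GRCm38. The counting tool and its handling of strand and shared reads are not given in the sources used here. Ratios of the deposited FPKM were used, because FPKM takes account of gene length and of the authors' library sizes. No p-value was computed. Intervals (Clopper-Pearson, 95%) and the floor of 3 counts cover counting error only, since reads without molecular identifiers are not independent molecules. Counts came from samples matched to their columns by label, the MICFs column by elimination. Gene groups and members were chosen with earlier results of these data known. Genes were named as the delivered factors, the 15 largest and 15 smallest ratios (0 counts set to 3), and in each list up to 4 with most counts and the most extreme each way, with all thick filament, thin filament, collagen and endothelial members and the defining markers allowed; other names are marked as chosen after their values were seen, and a few genes that the rule names are not reported here. Alternatives were library totals, edgeR 4.0.16 TMM (R 4.3.3), quantile-normalized log2 (FPKM + 1), other count minimums and folds, and, added after seeing the data, macrophage scaling, contraction genes alone and genes with under 25% of exon bases shared. Scripts used Python 3.11.15, numpy 2.4.6, SciPy 1.17.1, pandas 2.3.3 and matplotlib 3.10.9 and were tested on simulated data.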

Additional observations from a re-analysis of the deposited data

How the results depend on the processing

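No paired analysis was possible because there was only 1 library of each kind, and for the same reason no library could be left out. Of 59 alternative values of 7 results, 39 were scored as close to the value given and 20 as moved. A count was scored as close within 1.5-fold, and a median within the median limits of its genes' counting intervals. Close values thus include 1285 and 2588 lower genes instead of 1833. They also include 722 and 1367 higher genes instead of 1046. The 1046 higher genes became 691 after quantile normalization, 2258 past 1.5-fold, 45 past 4-fold, 664 with the whole interval past 2-fold and 24 with the macrophage median at 0. The 1833 lower genes became 1152 with at least 200 counts, 1064 past 4-fold and 6698 with the macrophage median at 0. The cardiac median of 0.56 became -0.65 with the macrophage median at 0 and 1.12 over contraction genes alone. The fibroblast median of -3.22 became -2.78 after quantile normalization and -4.43 with the macrophage median at 0, and the endothelial median of -4.05 became -2.90 and -5.27. The 1141 lower genes within 2-fold of MICFs in the library labelled GMTMM became 732 with at least 200 counts and 714 past 4-fold. The 386 genes above MICFs in GMTMS-iCMs only became 187 with library totals, 237 after quantile normalization, 828 past 1.5-fold and 13 past 4-fold. Higher folds and count minimums pass fewer genes by construction, and quantile normalization adds 1 to each FPKM and so shrinks ratios of low genes. Library totals lower every ratio of GMTMS-iCMs to MICFs by the same factor. The sizes behind the FPKM were 9287868 for GMTMS-iCMs and 14389264 for MICFs, against totals of 10624118 and 11861773. Of 149 single genes 121 were past 2-fold, of which 117 were also past it with TMM, 109 with library totals and 101 after quantile normalization. None of these 121 changed direction with these scalings. With the macrophage median of 1.21 at 0 some did, as Tnnt2, with a log2 ratio of 1.12, lay below that median. Genes within 2-fold could change sign, as the log2 ratio of Cryab did from 0.07 to -0.09 with library totals. Depth limits genes with few counts, whose intervals span several fold.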

Other observations

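Several small lists of other cell types differed between the libraries too, and their values are given without a test. Cd3e, a chain of the T cell receptor complex, had 4, 4 and 57 counts, in the order MICFs, GMTMS-iCMs, library labelled GMTMM, and was 11.3-fold lower (4.19 to 43.0) in GMTMS-iCMs. Cd8a, of cytotoxic T cells, had 1, 1 and 63 counts. Of the 4 T and B cell genes compared 3 were lower, and Cd4, of helper T cells, was 2.79-fold higher (2.38 to 3.28) with 241, 508 and 229 counts. A group of cytotoxic genes was put together after their values were seen. Nkg7 had 4, 1 and 62, Gzma 0, 1 and 55 and Klrc1 0, 1 and 58 counts. All 5 genes of the group that were compared were lower in GMTMS-iCMs. The 12 genes of the group had 43 counts together in GMTMS-iCMs, so none reached the count minimum there. Those compared passed it only in the library labelled GMTMM, as did Cd3e and Cd8a. Their direction was therefore set by that minimum and is no separate result. The sort took mCherry-positive cells, and where their RNA came from was not tested.

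Of 6 mesothelial and epicardial genes, 4 were lower and none higher, with a median log2 ratio of -1.94. Aldh1a2, which makes retinoic acid, had 2485, 182 and 2874 counts and was 12.6-fold lower (10.8 to 14.7), whereas Lrrn4, of mesothelium, had 7, 87 and 478 counts and was 4.37-fold lower (3.47 to 5.56), so that both sorted libraries held more of Lrrn4 than MICFs. The defining mesothelial markers Msln and Upk3b had 2, 0 and 24 and 23, 31 and 58 counts. Of 3 skeletal muscle genes 2 were higher, Tnnt1, the slow troponin, with 11, 410 and 131 counts, 3.94-fold higher (3.23 to 4.83), and Mylpf, the fast light chain, with 10, 157 and 76 counts, 2.60-fold higher (1.96 to 3.46), while the skeletal muscle factors Myod1, Myog, Myf5 and Pax7 had 0 counts in all 3 libraries. Of 3 lymphatic endothelial genes 1 was lower, and Lyve1, which resident macrophages also carry, was 1.37-fold higher (1.02 to 1.83) with 377, 100 and 92 counts. Of 2 Schwann cell genes 1 was higher and 1 lower, and the defining marker Sox10 stayed under the count minimum. A group of 13 phagocyte genes, also put together after their values were seen, held 12 higher genes, among them Mpeg1, the pore-forming protein of macrophages, with 27085, 45356 and 16247 counts, 3.51-fold higher (3.45 to 3.57).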
